A study of Mus musculus with 4 samples.

Results

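Droplets that carried collagen RNA were looked for in single-cell libraries of CD11b+ cells sorted from mouse tumors. A droplet is 1 cell barcode with its unique molecular identifiers (UMIs), each standing for 1 captured RNA molecule. Droplets were selected on measured values: a droplet was counted when its raw UMIs of Col1a1, Col1a2, Col3a1, Dcn, Lum and Sparc summed to at least 3 (the collagen sum) and those of C1qa, C1qb and C1qc to at most 9. The rule was met by 51 of 25333 kept droplets, 29 of 15140 in the VISTA KO library and 22 of 10193 in the WT library. Vsir encodes VISTA, a receptor on myeloid cells and T cells that dampens immune responses. Chimeric mice were made with bone marrow of VISTA KO or WT donors of the C57/BL6 strain, and after 6 weeks received MC38, a mouse colon carcinoma line. Tumors were taken at 9 to 10 mm, pooled and dissociated. The sort took viable cells with surface CD11b, and CD45.1 against CD45.2 separated WT from KO cells. Neither the recipients of the marrow nor the sex of mice or line is stated. The names VISTA KO and WT give the genotype of the donor marrow, and whether each droplet held a donor cell was not tested. With 1 gene expression library and its tag library per group, differences between VISTA KO and WT could not be checked against replicates. All intervals are at 95% and cover the error of counting alone.

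Collagens are secreted as trimers that assemble outside the cell into fibrils. Type I collagen is built from the products of Col1a1 and Col1a2, and type III from Col3a1. Dcn encodes decorin and Lum encodes lumican, small proteoglycans that bind collagen fibrils, and Sparc encodes a collagen-binding glycoprotein. In tumors these genes are best known from fibroblasts. A CD11b+ sort is meant to keep myeloid cells, which carry Itgam (CD11b) and Ptprc (CD45), the common leukocyte surface protein.

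The surface tags are shown because the rule did not use them and the droplets differed in them. Each antibody carried a DNA barcode read with the cell barcode, printed here 5′ to 3′ with all bases in capitals since the whole run identifies the antibody.
CD11c: GTTATGGACGCTTGC
Ly6G: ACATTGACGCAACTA
Ly6C: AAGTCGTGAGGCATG
CD11c marks dendritic cells and some macrophages, Ly6G neutrophils, and Ly6C monocytes above all.

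The 120 bases before the start site follow for 3 genes that stood apart in these droplets. The genes are Col3a1, which was abundant, Col1a2, which was nearly missing, and Rhox5, outside the rule and found in 25 of the 51 droplets. The stretches come from RefSeq on GRCm38.p6 and lie on the plus strand, at chr1:45311418-45311537, chr6:4505498-4505617 and chrX:37754488-37754607. Capitals mark the motifs CCAAT and TATAAA, searched on both strands, and in Rhox5 a reverse-strand CCAAT overlaps a forward one.
Col3a1: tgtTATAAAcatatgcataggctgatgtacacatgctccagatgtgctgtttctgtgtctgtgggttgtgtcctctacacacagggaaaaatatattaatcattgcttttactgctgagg
Col1a2: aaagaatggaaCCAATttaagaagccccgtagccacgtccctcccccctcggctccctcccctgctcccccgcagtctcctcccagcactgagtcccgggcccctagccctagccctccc
Rhox5: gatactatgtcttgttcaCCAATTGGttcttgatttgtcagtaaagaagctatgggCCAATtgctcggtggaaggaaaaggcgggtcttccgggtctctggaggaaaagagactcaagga
Of 32851 promoter stretches of the same length, 21.3% held CCAAT and 6.34% held TATAAA. A match describes these letters and is no site.

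The collagen sum held little RNA of type I collagen. The most frequent genes were Dcn (ENSMUSG00000019929, chromosome 10, 97479500 to 97518163 on GRCm38.p6), Sparc (ENSMUSG00000018593, chromosome 11, 55394159 to 55420080) and Col3a1 (ENSMUSG00000026043, chromosome 1, 45311538 to 45349706). Over both libraries the 1005 collagen-sum UMIs of the 51 droplets held 360 of Dcn, 325 of Sparc and 311 of Col3a1, but 7 of Col1a1, 1 of Col1a2 and 1 of Lum. Col1a1 and Col1a2 were thus 0.697% (0.281 to 1.43, exact binomial) and 0.0995% (0.00252 to 0.553) of the sum. In the 16032 droplets with a collagen sum of 0 to 2 and C1q within the limit, called the droplets outside, they were 6.35% each (3.92 to 9.64) of 315 UMIs. These UMIs chose the droplets, and 332 of the 1005 lay in 1 WT droplet, so the shares are a description and support nothing.

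The 29 VISTA KO droplets held 393 of the 1361 collagen-sum UMIs of all kept VISTA KO droplets (28.9%), and the 22 WT droplets held 612 of 961 (63.7%). The sum ran from 3 to 85 with a median of 7 in VISTA KO, and from 3 to 332 with a median of 10.5 in WT. Over both libraries 15 droplets had a sum of 3 or 4, 13 had 5 to 9, 20 had 10 to 49 and 3 had 50 or more. At the edge of the rule stood 11 droplets with a sum of 3, in which the leukocyte list (11 genes, among them Ptprc, Itgam and Lyz2) took a median of 2.17% of UMIs, and 27 droplets just outside with a sum of 2, at 1.52%. Another 41 droplets had a sum of 3 or more but C1q above the limit, with a median of 71 C1q UMIs, and none of these had 10 to 14.

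**Figure D1:**
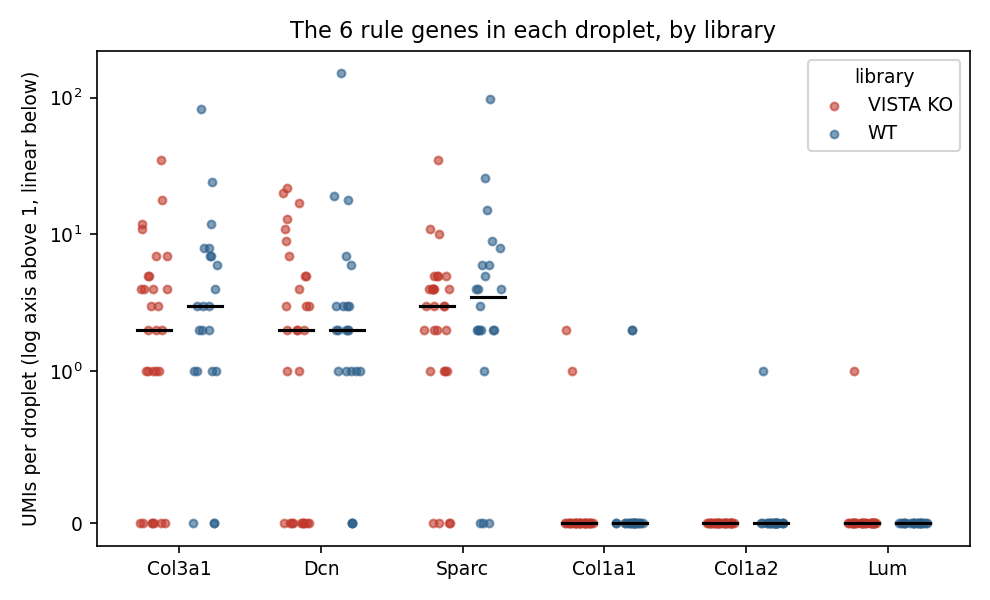
UMIs of the 6 genes of the rule in each of the 51 droplets (points, on a log axis above 1 and linear below), VISTA KO left of WT, with the median as a bar. Col3a1, Dcn and Sparc reach up to 35, 22 and 35 UMIs in VISTA KO and 83, 151 and 98 in WT, while Col1a1, Col1a2 and Lum lie at 0 in nearly every droplet.

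The droplets differed among themselves in leukocyte RNA. In 20 of them, 11 VISTA KO and 9 WT, the leukocyte list took under 1% of UMIs (called leukocyte-poor), and in the other 31, 18 VISTA KO and 13 WT, it took 1.08% to 3.49% (leukocyte-rich). This split was made after the values had been seen, and 11 droplets lay between 0.5 and 1.5%. In the droplets outside the median was 2.38%. Droplets under 1% were also found without collagen: 531 VISTA KO and 424 WT droplets outside, in which the fibroblast list described next stood at 36.2 UMIs per 1000000 in VISTA KO and 86.4 in WT. No droplet of the 51 held a barcode sequence found in both libraries.

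**Figure D2:**
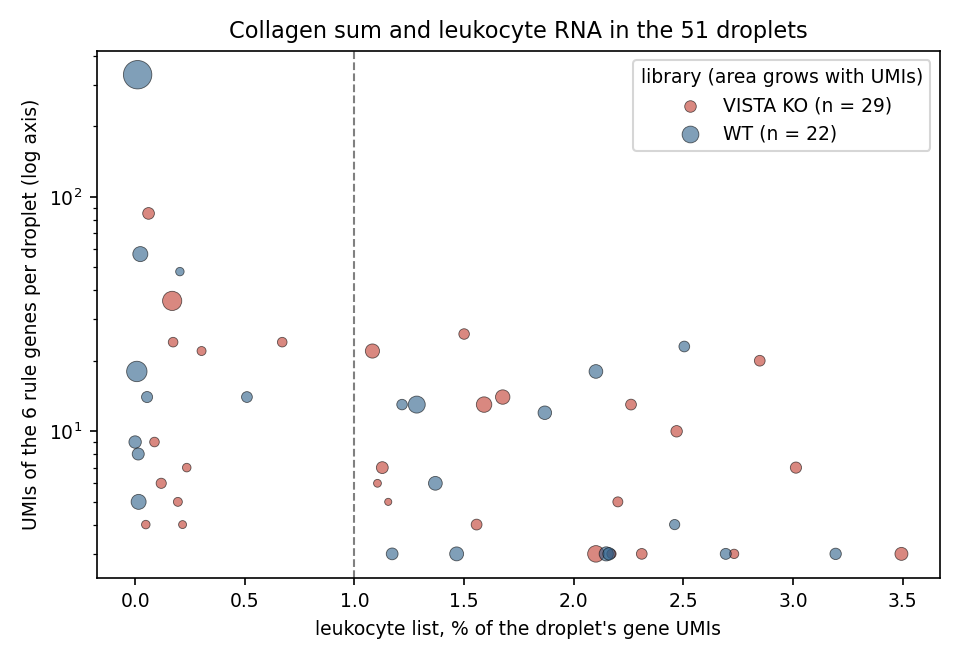
Share of UMIs from the leukocyte list (x axis, percent) against the collagen sum (y axis, log scale) for the 29 VISTA KO and 22 WT droplets, with point area growing with UMIs. The dashed line at 1% parts the 20 leukocyte-poor droplets, which hold all 3 sums of 50 or more, from the 31 leukocyte-rich ones.

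Leukocyte-poor droplets carried more genes of the matrix than the rule had used. The fibroblast list, 18 genes of which none is in the rule, stood at 2579 UMIs per 1000000 (CPM) in VISTA KO and 2096 in WT leukocyte-poor droplets, against 440 and 454 in leukocyte-rich droplets and 16 and 17 in the droplets outside. At least 3 different genes of the fibroblast list were found in 16 of 20 leukocyte-poor droplets, 16 of 31 leukocyte-rich droplets and 7 of 16032 droplets outside. Fstl1, a secreted glycoprotein of the follistatin family, had 145 UMIs in 16 of the 20 leukocyte-poor droplets, at 782 CPM (660 to 920), against 0.929 CPM (0.707 to 1.20) outside. Serpinf1, which encodes the secreted serpin PEDF, had 71 UMIs in 15 droplets. Pcolce, which speeds the trimming of procollagen, had 29 UMIs in 14 droplets and Fbn1, the microfibril protein fibrillin, 40 UMIs in 10.

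Collagens other than type I were present in the leukocyte-poor droplets at lower counts. Col6a1 had 35 UMIs, Col6a3 28 and Col6a2 6, the chains of beaded-filament collagen VI, and Col5a1 had 16 and Col5a2 12, chains of the fibril collagen V. Genes that fold collagen in the endoplasmic reticulum were there as well, with 57 UMIs of Serpinh1, the collagen chaperone, at 307 CPM (233 to 398) against 0.740 CPM (0.544 to 0.984) outside. The collagen folding and cross-linking enzymes together stood at 3076 CPM in VISTA KO and 1822 in WT leukocyte-poor droplets, against 926 and 1008 outside. Timp2, an inhibitor of matrix proteases, had 208 UMIs and was found in all 20 droplets. Fn1, fibronectin, was no mark of these droplets: it stood at 1100 CPM (954 to 1261) in leukocyte-poor droplets and already at 668 CPM (661 to 674) outside.

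Several defining fibroblast and contractile markers were at 0. Pdgfrb, Thy1, Bgn and Acta2 had no UMI in the 20 leukocyte-poor droplets, and Tagln had 1. With 185493 gene UMIs in these droplets, a count of 0 allows up to 16.2 CPM. Pdgfra, the other platelet-derived growth factor receptor of fibroblasts, had 6 UMIs in 3 droplets. Of the contractile fibroblast list, 119 of 167 UMIs were Tpm2, a tropomyosin, and 31 were Thbs2, a matrix thrombospondin. The markers of the label are met only in part, since Col3a1, Dcn and Sparc were frequent and Col1a1 and Col1a2 scarce, so the droplets are called by their genes and are given no cell type name.

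Markers of other tumor and stromal cells were scarce. The carcinoma list of 11 genes, with Epcam, Krt8, Krt18 and Cdh1 for epithelial adhesion and keratin filaments, had 0 UMIs in leukocyte-poor droplets and 5 in leukocyte-rich droplets. The lists for Schwann cells, adipocytes, skeletal muscle, mesothelium, B cells and mast cells also had 0 UMIs in leukocyte-poor droplets. The endothelial list had 2, the pericyte and smooth muscle list 3 and the keratinocyte list 6. In the droplets outside the carcinoma list stood at 22.6 CPM, near the limit of 16.2 CPM that a count of 0 allows in the leukocyte-poor ones. No cultured MC38 cells were measured here, and whether the droplets stem from the line was not tested.

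Ranked after the fact by their ratio to the droplets outside, the genes that led the leukocyte-poor droplets included developmental and embryonic genes. Rhox5, an X-linked homeobox gene of the reproductive tract that is also active in many mouse tumor lines, had 146 UMIs in 14 of 20 droplets, at 787 CPM (665 to 926) against 2.05 CPM (1.71 to 2.43) outside. H19, an imprinted non-coding RNA of embryonic tissue, had 187 UMIs in 13 droplets. Hmga2, a chromatin protein of embryonic cells, had 40 in 6 droplets, and Prrx1, a homeobox factor of mesenchyme, had 41 in 5. The 3 droplets with a collagen sum of 50 or more held 29 of these Hmga2 UMIs and 31 of the Prrx1 UMIs. Cd34, a sialomucin of progenitor, endothelial and some stromal cells, had 146 UMIs in 18 droplets. Phgdh, the first enzyme of serine synthesis, had 125 in 17. These genes were picked for their ratios, so the ratios describe the droplets and test nothing.

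These genes did not occur evenly. Rhox5 ran from 0 to 9 UMIs per VISTA KO leukocyte-poor droplet with a median of 1, and from 0 to 69 with a median of 7 in WT. H19 ran from 0 to 11 with a median of 0 in VISTA KO and from 0 to 68 with a median of 6 in WT. These counts are not scaled to depth, and the leukocyte-poor droplets had median depths of 3399 UMIs in VISTA KO and 7694 in WT. They are therefore no measure of a difference between the libraries. The deepest VISTA KO droplet, with 22499 UMIs and a collagen sum of 36, had no UMI of either gene, while it had 13 of Cd34. The deepest WT droplet, with 52900 UMIs, had 69 of Rhox5, 68 of H19 and 47 of Cd34.

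Leukocyte RNA was low but not missing in the leukocyte-poor droplets. Ptprc had 10 UMIs in 4 of 20 droplets and Itgam 5 in 4, while Lyz2, the lysozyme of myeloid cells, had 36 in 17. In leukocyte-rich droplets Ptprc had 113 UMIs in 26 of 31 and Itgam 66 in 23. Lyz2 stood at 6961 CPM (6619 to 7315) in leukocyte-rich droplets and 9596 CPM (9572 to 9620) outside. These genes belong to the list that made the split, so the tags and Xist, which do not, are the separate measures.

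Xist, the RNA that coats the inactive X chromosome in female cells, followed the leukocyte RNA. It had 7 UMIs in 3 of 20 leukocyte-poor droplets, at 37.7 CPM (15.2 to 77.8), and 4 of the 7 lay in the deepest VISTA KO droplet. It had 57 UMIs in 18 of 31 leukocyte-rich droplets, at 255 CPM (193 to 330), and stood at 365 CPM (361 to 370) outside. By library the Xist level was 92.1 CPM in VISTA KO and 15.2 CPM in WT leukocyte-poor droplets, from 5 and 2 UMIs, against 412 and 314 CPM outside. Both WT UMIs lay in 1 droplet, which also held 90 UMIs of a list of NK cell genes and 3 of Ptprc. The 4 Y-linked genes of the list had no UMI in any of these groups.

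The surface tags followed the same split. The Ly6C tag ran from 142 to 1513 UMIs per droplet with a median of 196 in the 11 VISTA KO leukocyte-poor droplets, and from 118 to 374 with a median of 234 in the 9 WT ones. In leukocyte-rich droplets it ran from 123 to 3842 with a median of 1242 in VISTA KO and from 854 to 5538 with a median of 1887 in WT. The 9 WT leukocyte-poor droplets all lay below the 13 WT leukocyte-rich ones, while the VISTA KO groups overlapped. Droplets with NK cell RNA (at least 3 UMIs of Ncr1, Klrb1c and Klre1) had median Ly6C tags of 183 in VISTA KO and 189.5 in WT, so the leukocyte-poor droplets lay near that level. The CD11c tag had a median of 2 in VISTA KO and 3 in WT leukocyte-poor droplets, against 11.5 and 15 in leukocyte-rich ones. The Ly6G tag was at a median of 1 in both libraries, against 5.5 in VISTA KO and 8 in WT leukocyte-rich droplets. No tag for CD11b was read, so the gate of the sort could not be checked at the protein level.

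**Figure D3:**
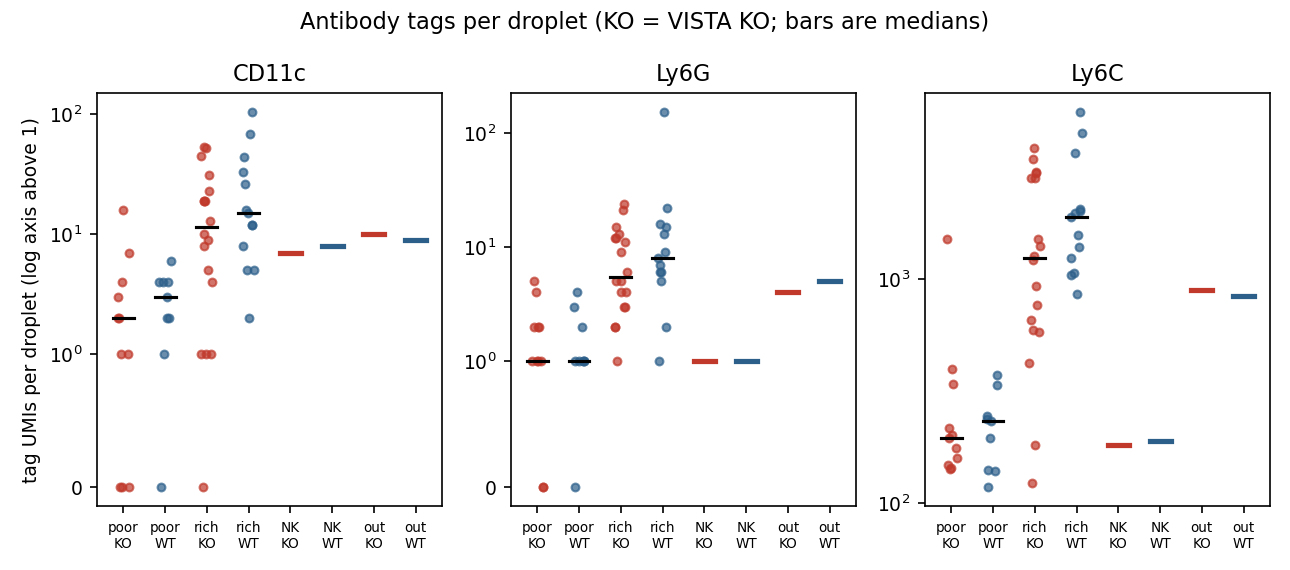
UMIs of the CD11c, Ly6G and Ly6C tags per droplet (log axis above 1) in leukocyte-poor and leukocyte-rich droplets, VISTA KO left of WT, with medians as black bars, and the medians of droplets with NK cell RNA (NK) and of the droplets outside (out) as colored bars. For Ly6C the leukocyte-poor medians of 196 and 234 lie near the NK medians of 183 and 189.5, below the leukocyte-rich medians of 1242 and 1887.

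Summed over droplets, the leukocyte-rich ones carried monocyte RNA together with the same matrix and embryonic genes. The monocyte list stood at 10741 CPM in VISTA KO and 11923 in WT leukocyte-rich droplets, against 12519 and 13446 outside. Ly6c2, a monocyte surface gene, had 657 UMIs in 28 of 31 droplets, at 2937 CPM (2717 to 3171) against 3306 CPM (3292 to 3320) outside. Rhox5 stood at 125 CPM (83.2 to 181) in leukocyte-rich droplets, below the leukocyte-poor level and above the 2.05 CPM outside. H19 was at 304 CPM (236 to 385), Cd34 at 259 (197 to 335), Fstl1 at 139 (94.2 to 197) and Tpm2 at 277 (213 to 355), against 6.25, 2.49, 0.929 and 2.57 CPM outside. Rhox5 was found in 11, H19 in 13, and Cd34 and Fstl1 in 20 each of the 31 leukocyte-rich droplets. Their collagen sum of 274 UMIs held 92 of Dcn, 89 of Sparc, 86 of Col3a1, 5 of Col1a1 and 1 of Col1a2. That of leukocyte-poor droplets, 731 UMIs, held 268 of Dcn, 236 of Sparc, 225 of Col3a1, 2 of Col1a1 and 0 of Col1a2. Whether such a droplet held 1 cell or more, and how much free RNA it held, was not tested.

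**Figure D4:**
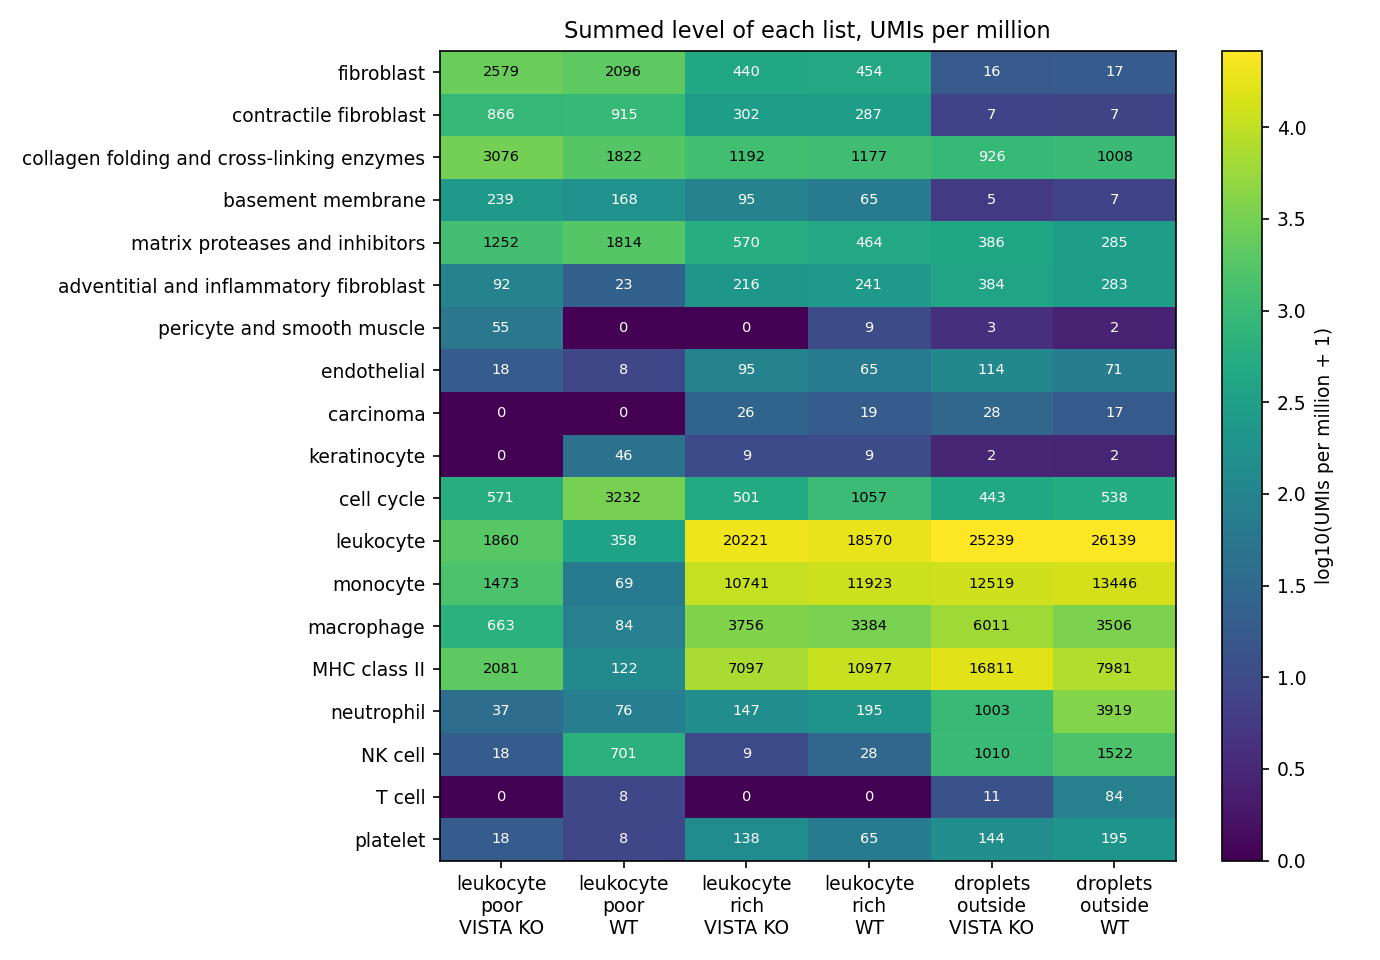
Summed level of each gene list (rows, UMIs per 1000000, color on a log10 scale) in leukocyte-poor droplets, leukocyte-rich droplets and the droplets outside, VISTA KO left of WT in each pair. The fibroblast list falls across the 3 groups from 2579 and 2096 over 440 and 454 to 16 and 17, while the carcinoma row is at 0 in leukocyte-poor droplets.

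Clustering of the 51 droplets without the rule genes gave a partition close to the leukocyte split, as a description only. The genes of the leukocyte list were left in, so closeness to a split made on them was partly built in. One cluster of 14 droplets, 7 VISTA KO and 7 WT, was leukocyte-poor throughout, had 9 supporting fibroblast markers and a median Ly6C tag of 198. It was left unnamed, since its 10 leading genes, headed by Tk1 and Thbs2, held 1 contractile marker and no gene of the fibroblast list. The other cluster of 37 droplets, 22 VISTA KO and 15 WT, held 6 leukocyte-poor droplets, had 11 supporting leukocyte and 8 supporting monocyte markers and a median Ly6C tag of 1270. At a finer resolution 1 cluster of 13 droplets was leukocyte-poor throughout, while another of 13 held 6 leukocyte-poor droplets beside leukocyte-rich ones.

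With the rule as set, the shares of these droplets in the libraries differed by less than the counting error. They were 0.192% of VISTA KO droplets and 0.216% of WT droplets, a difference of -0.0243 percentage points (-0.149 to 0.0867, Newcombe interval). Leukocyte-poor droplets were 37.9% of the VISTA KO and 40.9% of the WT ones, a difference of -2.98 points (-28.4 to 22.3). Droplets with NK cell RNA should lack collagen RNA: 0 of 376 in VISTA KO, which allows up to 0.798%, and 1 of 422 in WT (0.237%, 0.00600 to 1.31) had a collagen sum of 3 or more, at median depths of 2700 and 2580 UMIs. That 1 WT droplet is also among the 51, since it met both rules, so this background is not separate from them. Droplets with neutrophil RNA (at least 3 UMIs of Cxcr2, Retnlg and Csf3r, C1q within the limit) gave 1 of 264 in VISTA KO (0.379%, 0.00959 to 2.09). In WT they gave 1 of 682 (0.147%, 0.00371 to 0.814). Their median depths were 4538 UMIs in VISTA KO and 4482 in WT, and their 2 droplets with such a sum are among the 51 as well. The collagen-expressing droplets themselves had median depths of 4733 UMIs in VISTA KO and 7688 in WT. Shares as low as these lie within the intervals of the NK and neutrophil droplets and cannot be told from that background by the share alone. With the minimum set in proportion to depth, at 3 UMIs per 5000, the rule took 76 VISTA KO and 25 WT droplets, and the difference became 0.257 points. That value lies outside the interval of the main difference, and no interval of its own was computed. At least 3 genes of the fibroblast list were found in 16 of these 76 and 14 of these 25 droplets.

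At least 3 genes of the fibroblast list were found in 15 of 29 VISTA KO droplets (51.7%) and 17 of 22 WT droplets (77.3%), a difference of -25.6 points (-47.0 to 1.18). Depth differed between the libraries, and with each droplet thinned to 2000 UMIs and the rule applied again the shares were 6 of 18 in VISTA KO and 3 of 11 in WT, a difference of 6.06 points. The thinning left out 3096 VISTA KO and 1593 WT kept droplets below that depth.

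Vsir, the gene by which the groups are defined, had 3 UMIs in VISTA KO and 7 in WT over the 51 droplets, all in leukocyte-rich ones. In leukocyte-poor droplets it had 0 UMIs, which allows up to 55.3 CPM in VISTA KO and 22.9 CPM in WT, against 35.7 CPM (33.7 to 37.8) and 125 CPM (121 to 129) in the droplets outside. The WT leukocyte-poor droplets thus lay below the WT droplets outside, while at this depth the VISTA KO ones could not be told from theirs. Ifi202b, an interferon-induced gene, had 60 UMIs in VISTA KO and 3 in WT leukocyte-rich droplets, at 518 CPM (395 to 667) against 27.8 CPM (5.74 to 81.3). It had 2 UMIs in VISTA KO and 0 in WT leukocyte-poor droplets, against 599 CPM and 5.97 CPM outside.

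Over all 51 droplets, leukocyte genes were higher in VISTA KO and cell cycle genes lower, but fewer leukocyte genes were higher without the 3 deepest droplets or within leukocyte-rich droplets alone. Ratios are VISTA KO over WT on the log2 scale, after adding 1 UMI to each side. Among genes with 50 UMIs or more, a gene was counted when its ratio was at least 1.5-fold either way with an interval that left out 1. Of 1129 genes, 124 were higher (11.0%) and 173 lower (15.3%) in VISTA KO, against 6.25% higher and 3.76% lower of 11346 genes in the droplets outside. For the lists, 6 of 11 genes of the leukocyte list and 4 of 7 counted genes of the monocyte list were higher and none lower, with medians of 0.62 and 0.63 on the log2 scale against -0.07 over all counted genes. Of the cell cycle list, 5 of 5 counted genes were lower, with a median of -2.48. The fibroblast list gave 2 counted genes, Fstl1 at -0.38 and Serpinf1 at -1.05, of which 1 was counted as lower, with a median of -0.72.

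**Figure D5:**
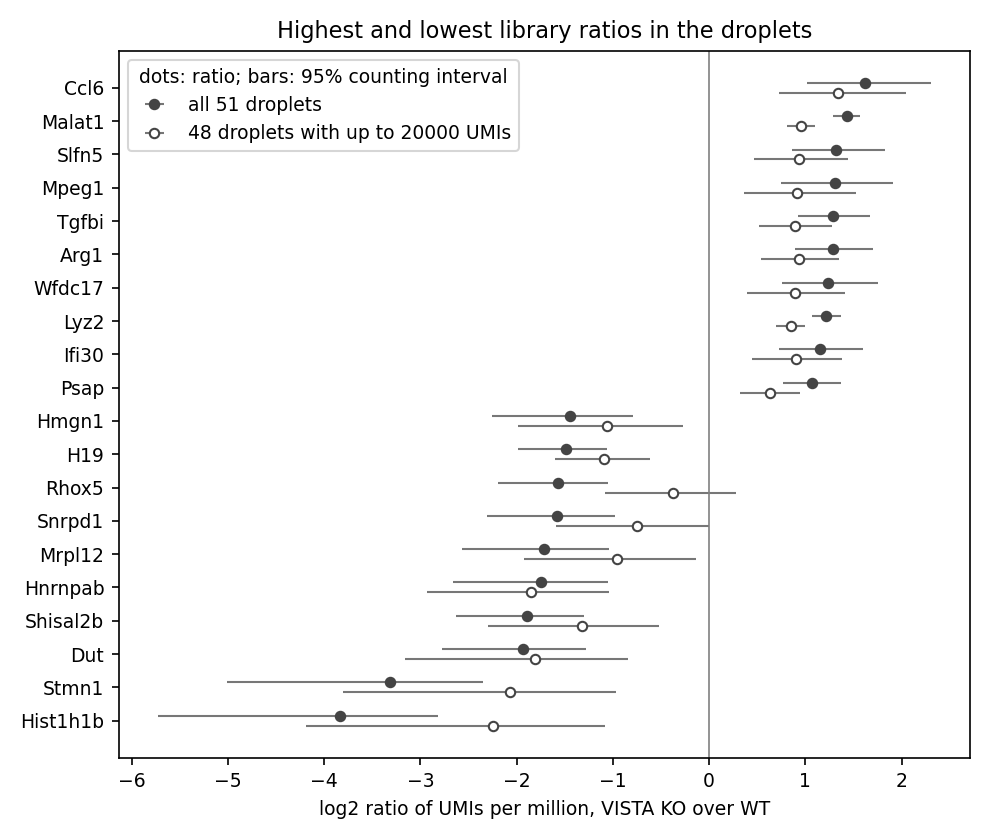
Log2 ratio of UMIs per 1000000, VISTA KO over WT, for the 10 genes with the highest and the 10 with the lowest ratio in the 51 droplets (filled), and for the same genes in the 48 droplets with at most 20000 UMIs (open), with 95% counting intervals. Every filled and open point of the upper 10 lies above 0, and all 20 points of the lower 10 lie below 0, with most open points nearer to 0.

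The named genes show which RNA lay behind these counts. Arg1, the arginase of suppressive myeloid cells, had 145 UMIs in VISTA KO and 83 in WT droplets, a log2 ratio of 1.29 (0.90 to 1.70). The Arg1 ratio was 0.93 (0.54 to 1.35) without the 3 droplets over 20000 UMIs and 0.67 (0.27 to 1.09) in leukocyte-rich droplets, which held 139 and 81 of these UMIs. Lyz2 was at 1.22 over all 51 droplets and 0.61 in leukocyte-rich ones, Ccl6, a myeloid chemokine, at 1.62, and Tgfbi, a secreted matrix protein of macrophages, at 1.29. Among the lowest, Stmn1, a microtubule regulator of dividing cells, had 6 UMIs in VISTA KO and 97 in WT at -3.32, and Hist1h1b, a linker histone of S phase, 5 and 119 at -3.83. Rhox5 was at -1.57 and H19 at -1.49. The rule genes, whose counts chose the droplets, are given as UMIs only: Col3a1 had 133 in VISTA KO and 178 in WT, Dcn 132 and 228, and Sparc 124 and 201.

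The deepest droplets held much of this RNA. A single WT droplet held 52900 of the 239060 UMIs of the WT droplets, 332 of their 612 collagen-sum UMIs and 222 cell cycle UMIs, and another WT droplet held 106 cell cycle UMIs. No droplet was left out on its own. Without the 3 droplets over 20000 UMIs, 1 VISTA KO and 2 WT, 59 of 854 genes were higher (6.91%) and 62 lower (7.26%), close to each other. Stmn1 was then at -2.07, Hist1h1b at -2.25, Rhox5 at -0.38 (-1.08 to 0.28), H19 at -1.09 and Lyz2 at 0.85, and the fibroblast list median was -0.003. Single droplets still weighed on these values. Of the H19 UMIs left, 1 WT droplet held 51 of the 119 in WT, against 51 in all of VISTA KO. Of the cell cycle list, 3 WT droplets held 58, 48 and 27 UMIs, while no VISTA KO droplet held more than 12. The rule genes then had 128 UMIs of Col3a1 in VISTA KO and 93 in WT, 112 and 76 of Dcn, and 113 and 88 of Sparc. Of the leukocyte list 1 of 11 genes was then higher, with a median of 0.24, of the monocyte list 0 of 6 were higher and 1 lower, and of the cell cycle list 1 gene was left to count and was lower. One further WT leukocyte-poor droplet held 90 UMIs of the NK cell list, and Gzma, a granule protease of that list, had 0 UMIs in VISTA KO and 66 in WT leukocyte-poor droplets.

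Within leukocyte-rich droplets, none of which was over 20000 UMIs, 33 of 674 genes were higher (4.90%) and 52 lower (7.72%) in VISTA KO. Of the leukocyte list 1 of 11 genes was higher and none lower, with a median of 0.02, and of the monocyte list 0 of 5 counted genes were higher and 1 lower, with a median of -0.17. Ccl5, a chemokine of activated leukocytes, had 186 UMIs in VISTA KO and 44 in WT at 1.95, and Cxcl9, an interferon-induced chemokine, 63 and 28 at 1.04. Il1b, the inflammatory cytokine, had 70 and 187 at -1.51, and Isg15, an interferon-induced modifier, 115 and 238 at -1.15. The MHC class II genes, which present antigen, were lower for 3 of 6 counted and higher for none, with H2-Ab1 at -0.90 and a list median of -0.60, against -0.01 over all genes counted. In the droplets outside the summed MHC class II level went the other way, at 16811 CPM in VISTA KO and 7981 in WT, against 7097 and 10977 in leukocyte-rich droplets; these differences between libraries were not tested against each other. The leukocyte-poor droplets gave 44 of 514 genes higher (8.56%) and 111 lower (21.6%). Among them Cd74, the MHC class II chaperone, had 61 UMIs in VISTA KO and 6 in WT. Over all 51 droplets Cd74 had 430 UMIs in VISTA KO, and 397 without the VISTA KO droplet over 20000 UMIs. That leukocyte-poor droplet thus held much of the 61, and it also held 40 UMIs of the monocyte list and 5 of Ptprc. With the 3 droplets over 20000 UMIs left out, 26 of 240 genes of the leukocyte-poor droplets were higher (10.8%) and 18 lower (7.50%). Their summed MHC class II list then had a log2 ratio of 3.48, against 4.02 with those droplets. The summed fibroblast list had a log2 ratio of -0.27 (-0.54 to -0.01) over all 51 droplets, 0.30 (-0.01 to 0.60) over all leukocyte-poor ones and 1.01 (0.57 to 1.45) over leukocyte-poor droplets with at most 20000 UMIs. In this last group 1 VISTA KO droplet, with a collagen sum of 85, held 59 of the 100 fibroblast list UMIs of VISTA KO, against 82 in all of WT.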

How the data were processed

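Gene expression and antibody tags were measured by 10x Genomics 3 prime v3.1 feature barcoding in 2 groups, VISTA KO and WT, with 1 library of each kind per group. The authors' deposited matrices hold raw UMI counts of 32285 genes and 3 tags, written by Cell Ranger 5.0.0 per the file headers, and aligned to mm10 per the submitters' processing notes, which also name Seurat 4.0 without its step. Cell calling settings are not stated. The VISTA KO library had 15257 barcodes with 80366761 gene UMIs, and the WT library 10241 with 61753547. At least 20000 read pairs per cell were sequenced for gene expression, per the labels' protocols. The labels also give 10000 cells loaded for each library, fewer than the barcodes of either one.

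Droplets with at least 200 genes, 500 gene UMIs and at most 10% mitochondrial UMIs were kept (99.2% of VISTA KO, 99.5% of WT). The 47 barcodes found in both libraries were treated as separate droplets. UMIs were summed over droplets per library and given per 1000000 (CPM). Intervals at 95% were exact Poisson for levels, Clopper-Pearson for shares, Newcombe for differences of shares and conditional binomial for ratios; a count of 0 is given the limit of 3 counts. Since each group is 1 library, there is no test, and droplets were not used as replicates. No doublet caller was run. Droplets were clustered with scanpy 1.11.5 and leidenalg 0.10.2. Gene positions and promoters are RefSeq's on GRCm38.p6. Ratios and intervals were also tested on simulated sums that held counting error alone. Spread between droplets was not simulated, so this says nothing on it.

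The droplets, gene lists and rules were chosen with earlier results of these data known. Named genes are the rule genes, Vsir, list members with 50 UMIs or more, and, among genes with 100 UMIs or more found in 5% of droplets, the 10 highest and 10 lowest ratios, without mt-, Rpl, Rps, Gm and Rik genes; not all are printed. The leukocyte split, the 20000 UMI subgroups and the ranking against the droplets outside were added after the data had been seen. Alternatives covered the collagen minimum, the C1q limit, droplet filters, depth, gene minimum and pseudocount.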

Additional observations from a re-analysis of the deposited data

How the results depend on the processing

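No paired analysis was possible because VISTA KO and WT are 1 library each, and for the same reason no replicate could be left out. The difference in share moved by less than its counting error under 12 of 13 alternatives, between -0.0379 and 0.0331 percentage points, and was 0.257, of opposite sign to the main -0.0243, with a minimum in proportion to depth. The difference in droplets with 3 fibroblast genes was negative under 12 of 13 alternatives and 6.06 points after thinning. The cause of the following changes was not tested. Of genes higher in VISTA KO there were 279 without the C1q limit, 8 after thinning, 59 without droplets over 20000 UMIs, 228 from 20 UMIs, 44 in leukocyte-poor and 33 in leukocyte-rich droplets, against 124. Of genes lower there were 6 after thinning, 62 without droplets over 20000 UMIs, 303 from 20 UMIs, 111 in leukocyte-poor and 52 in leukocyte-rich droplets, against 173. The fibroblast list median of -0.72 was -1.13 with the minimum in proportion to depth, -0.0030 without droplets over 20000 UMIs, 0.050 over 7 genes from 20 UMIs and -0.32 in leukocyte-poor droplets, and had no value after thinning or in leukocyte-rich droplets, where no list gene reached 50 UMIs. The splits by leukocyte RNA were chosen after seeing the data. Depth limits every value: 51 droplets hold 409174 UMIs, and 3 of them hold 101192.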

Other observations

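The type I collagen genes made up the following parts of the collagen sum outside the rule, as a description. With a sum of 1, 18 Col1a1 and 16 Col1a2 UMIs were found among 261, and with a sum of 2, 2 and 4 among 54. The 41 droplets with a sum of 3 or more and C1q above the limit held 9 Col1a1 and 12 Col1a2 UMIs among 439. The 51 droplets held 7 and 1 among 1005.

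Rhox5, H19 and Cd34 were also found, rarely, in the droplets outside. A Rhox5 UMI was present in 115 of 16032 (0.717%), an H19 UMI in 295 (1.84%) and a Cd34 UMI in 152 (0.948%). By library the Rhox5 level outside was 2.64 CPM (2.12 to 3.25) in VISTA KO and 1.39 (1.00 to 1.88) in WT.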
